A study of Homo sapiens with 8 samples.

Results

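The RBM genes encode RNA-binding motif proteins, a family named for the RNA recognition motif that most of its members carry. The genes described here were all those in the splicing tables whose symbol is RBM followed by a number, with RBM17 left out. They were 29 of the 12067 genes with an event in either fraction, and they held 496 of the 132938 splicing events. U2OS cells, a human osteosarcoma line, were treated for 48 h with 20 nM of either an EGFP siRNA, the control, or CHERP siRNA #2. Poly(A) RNA of the whole cell and of the cytoplasm was sequenced in 8 libraries, 2 per group. Only 1 CHERP siRNA was used, so an effect of CHERP and an effect particular to that siRNA cannot be told apart.

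CHERP is a nuclear protein that associates with the U2 small nuclear ribonucleoprotein, the particle that binds the branch point near the 3′ splice site. Several RBM proteins also act in splicing. RBM39 resembles the 3′ splice site factor U2AF2, RBM5 and RBM10 regulate the choice of exons, and RBM25 is associated with the U1 particle at the 5′ splice site. Others act elsewhere, such as RBM8A in the exon junction complex, RBM7 in nuclear RNA decay, RBM15 in the complex that writes m6A, and RBM3, a protein induced by cold. Genes of splicing proteins often hold introns and exons that bring in a premature stop codon when they stay in the mRNA, and such mRNAs can be kept in the nucleus or degraded.

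The 2 largest differences in inclusion that passed the test in this family were retained introns of RBM25 and RBM39 in whole cells. With CHERP siRNA, 1 intron in each of RBM25, RBM39, RBM5 and RBM3 was retained more often, and each of these introns lies within the coding region. Their splice sites are shown here because they are the ends of the introns the results turn on. The sequences were read from GRCh37 and run 5′ to 3′ on the strand of the gene, and the intron's first or last 2 bases are in capitals. A 5′ site is 3 exonic and 20 intronic bases, and a 3′ site is 20 intronic and 3 exonic bases.
RBM25 5′ splice site, chr14:73566456-73566478, plus strand: aagGTagtattcttgtcttttca
RBM25 3′ splice site, chr14:73569880-73569902, plus strand: gtgcttttattggtttctAGaaa
RBM39 5′ splice site, chr20:34328726-34328748, minus strand: aagGTgagaaaaaacatgtcggt
RBM39 3′ splice site, chr20:34326937-34326959, minus strand: cttctatcaaccctgcttAGgat
RBM5 5′ splice site, chr3:50138036-50138058, plus strand: cagGTtgcttcactcaccaagtc
RBM5 3′ splice site, chr3:50140496-50140518, plus strand: aattacttcttttcttacAGaaa
RBM3 5′ splice site, chrX:48434053-48434075, plus strand: gagGTggggcctcctatctgcag
RBM3 3′ splice site, chrX:48434682-48434704, plus strand: cttgtgtctcccacacttAGtct

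All 4 introns had the GT and AG ends, as did 97.7% of the 3717 introns in the whole-cell table of retained introns (RI). In the canonical transcripts of GENCODE 44 lifted to GRCh37, they were intron 9 of 18 in RBM25 (chr14:73566459-73569899, 3441 nt), intron 2 of 16 in RBM39 (chr20:34326940-34328745, 1806 nt), intron 6 of 24 in RBM5 (chr3:50138039-50140515, 2477 nt) and intron 3 of 6 in RBM3 (chrX:48434056-48434701, 646 nt). The median intron in that table had 259 nt, and the RBM25, RBM5, RBM39 and RBM3 introns were longer than 98.9%, 96.8%, 94.2% and 76.7% of its entries. Their GC contents were 33.3% in RBM25, 34.6% in RBM39, 39.8% in RBM5 and 56.2% in RBM3, against a median of 55.8%. Read on from the coding frame of the upstream exons, the first stop codon began at base 34 of the RBM25 intron, base 43 of the RBM39 intron, base 31 of the RBM5 intron and base 145 of the RBM3 intron.

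**Figure D1:**
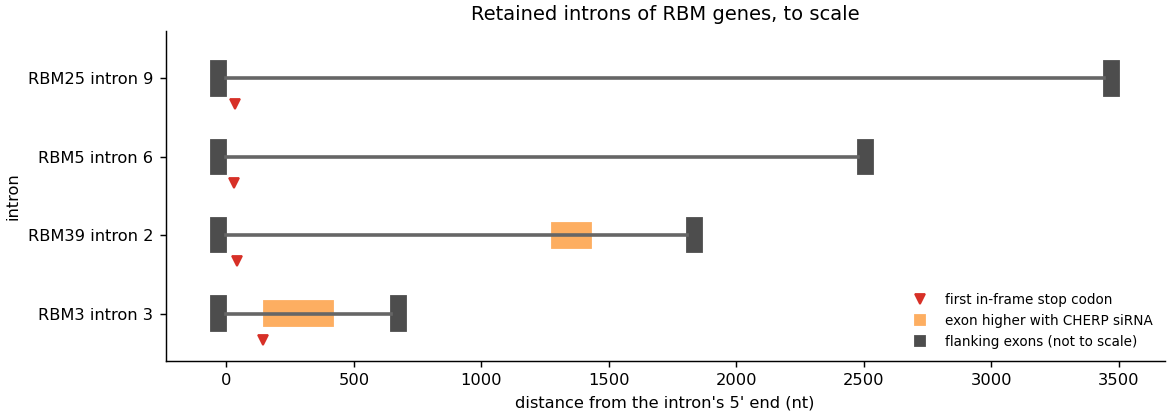
Retained introns of 4 RBM genes drawn to scale, with the distance from the 5′ end of the intron in nt on the x axis and 1 intron per row. The red triangles mark the first stop codon in frame, at base 34 in RBM25, 31 in RBM5, 43 in RBM39 and 145 in RBM3, all near the 5′ end, and the orange boxes mark the 155-nt exon of RBM39 and the 269-nt exon of RBM3 that lie inside the retained introns.

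In RBM39 and RBM3, exons that lie inside these same introns also rose with CHERP siRNA, and a further exon rose in the next intron of RBM39. They are shown with the first in-frame stop codon in capitals, found by reading from the canonical coding sequence straight into the exon. The stop codons began at base 136 of the 155-nt exon, base 41 of the 72-nt exon and base 61 of the 269-nt exon. GENCODE places both RBM39 exons in transcripts annotated as targets of nonsense-mediated decay, the pathway that degrades mRNAs with premature stop codons, and the RBM3 exon in a transcript without a defined coding sequence.
RBM39 155-nt exon in intron 2, chr20:34327315-34327469, minus strand: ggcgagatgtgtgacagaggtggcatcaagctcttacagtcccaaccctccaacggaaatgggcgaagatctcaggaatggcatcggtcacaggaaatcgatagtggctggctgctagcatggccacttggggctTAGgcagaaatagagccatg
RBM39 72-nt exon in intron 3, chr20:34322108-34322179, minus strand: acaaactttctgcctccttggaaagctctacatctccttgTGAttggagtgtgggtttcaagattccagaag
RBM3 269-nt exon in intron 3, chrX:48434203-48434471, plus strand: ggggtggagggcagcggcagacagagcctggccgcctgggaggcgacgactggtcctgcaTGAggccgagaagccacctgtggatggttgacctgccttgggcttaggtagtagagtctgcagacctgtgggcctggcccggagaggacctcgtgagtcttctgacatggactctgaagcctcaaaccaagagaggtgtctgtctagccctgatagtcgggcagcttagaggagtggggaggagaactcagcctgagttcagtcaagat

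The siRNA lowered its target. CHERP had 103 and 77 reads on its events in the EGFP siRNA whole-cell libraries and 3 and 10 in the CHERP siRNA libraries, a log2 abundance of -3.46 (SE 0.57, limma adjusted p = 0.00146). In the cytoplasm it had 31 and 21 reads against 3 and 4. Summed over all events, with reads that lie on several events counted at each, the whole-cell libraries held 29409956 to 35664568 reads and the cytoplasmic libraries 5370756 to 6580099, of which the RBM events took 123295 to 156234 and 17279 to 24854. Of the bone and mesenchymal markers, 2 of 5 had events, RUNX2 and VIM, and COL1A1, COL1A2 and SPARC had none. The summed reads of those 2 were 57418 to 80880 per whole-cell library and 8007 to 10319 per cytoplasmic library. Nearly all were on VIM, whereas RUNX2, the bone lineage factor, had 16 and 18 reads in the control and 0 and 3 in the CHERP siRNA libraries of whole cells. Of the 3 epithelial markers, CDH1 alone had an event, with 1 and 1 reads in the EGFP siRNA and 22 and 15 in the CHERP siRNA whole-cell libraries, and neither of the 2 blood markers had one. The part of these shifts in the results was not tested.

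Of the 335 whole-cell events in RBM genes, 16 passed the test (4.78%), against 1.12% of all 89379 events. In 12 of them the inclusion level, the share of transcripts with the inclusion form after reads are divided by the effective length of each form, was higher with CHERP siRNA, and in 4 it was lower. The test modelled the reads of both forms as quasi-binomial, with Benjamini-Hochberg adjustment within the event type, and its adjusted p is called FDR below. Among retained introns 4 of 19 passed (21.1%, background 3.23%), among skipped exons (SE) 3 of 226 (1.33%, background 0.886%), among mutually exclusive exons (MXE) 7 of 54 (13%, background 1.6%) and among alternative 5′ splice sites (A5SS) 2 of 11 (18.2%, background 1.16%). None of 25 alternative 3′ splice sites (A3SS) passed, against 1.14% of all. The 16 events lie in 5 genes, with 7 in RBM3, 5 in RBM39, 2 in RBM8A and 1 each in RBM25 and RBM5, and many share reads, since they fall into 7 stretches of overlapping exons or introns.

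In each of the 16 events the CHERP siRNA libraries did not overlap the EGFP siRNA libraries. The share of all events without overlap is not given. The 16 events were those that passed a test on these same libraries, so their separation is no further support. The count was 4 without the first and 7 without the second CHERP siRNA library, while that over all events went from 997 to 327 and 319. limma on the log2 odds of inclusion, which gives weight to the spread between libraries, called none of them (34 of 335 at an unadjusted p under 0.05), and 1 of all 89379 events. At the unadjusted threshold the share of all events is not given, so the 34 cannot be set against a background.

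Among the events that passed, the largest rise was in RBM25. Its 3441-nt intron was retained at 0.151 and 0.157 with EGFP siRNA and at 0.306 and 0.392 with CHERP siRNA, a difference of 0.195 ± 0.043 (SE, n = 2 per group, FDR = 1.35e-12, quasi-binomial test across all introns). Both CHERP siRNA libraries lay well above both controls. The reads inside the intron were 994 and 1561 in the control libraries and 1482 and 1941 in the CHERP siRNA libraries, while the reads that join its flanking exons were 224 and 336 against 135 and 121. The spliced form thus had fewer reads in both CHERP siRNA libraries, and this intron passed the test with any 1 library left out (highest FDR 0.000382).

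RBM39 intron 2 was retained at 0.112 and 0.164 with EGFP siRNA and at 0.294 and 0.259 with CHERP siRNA, a difference of 0.139 ± 0.0313 (SE, FDR = 2.06e-12, quasi-binomial test). The groups did not overlap, but the control libraries differed from each other by more than the model allowed, with a dispersion of 15.3 in this event against the 3.07 used. Because the 155-nt exon lies in this intron, its reads count towards retention. With them subtracted, an alternative chosen after seeing the data, the difference was 0.14 (FDR = 5.15e-12, quasi-binomial test), and the intron also passed with any 1 library left out (highest FDR 1.91e-05).

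The 155-nt exon of RBM39 was included at 0.0392 and 0.0457 with EGFP siRNA and at 0.125 and 0.0981 with CHERP siRNA (difference 0.0693 ± 0.014 SE, FDR = 0.00467, quasi-binomial test). The 72-nt exon was included at 0.0414 and 0.0357 against 0.0927 and 0.0916 (difference 0.0536 ± 0.00291 SE, FDR = 0.00364, quasi-binomial test). Both exons stayed minor forms, skipped in most transcripts under either siRNA. The inclusion levels rest on 37 to 67 inclusion reads for the first and 38 to 90 for the second. The FDR of the 155-nt exon rose to 0.527 without the first CHERP siRNA library, and was over the threshold also without the second (0.0601) and without the first EGFP siRNA library (0.056). That of the 72-nt exon rose to 0.182 and 0.133 without the first and second CHERP siRNA library and to 0.0847 without the second EGFP siRNA library.

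The 2 mutually exclusive exon events of RBM39 set a 1920-nt exon that is the retained intron with its flanking exons against another exon. Its share rose from 0.139 and 0.161 to 0.233 and 0.234 in the event with more reads (FDR = 4.24e-06, quasi-binomial test) and from 0.322 and 0.35 to 0.44 and 0.507 in the other (FDR = 0.000214, quasi-binomial test). These events count the same intron reads again and are no further evidence of retention. The second was over the threshold without the second CHERP siRNA library (FDR = 0.327).

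RBM5, a regulator of exon choice and of apoptosis genes, showed the fourth retained intron. Intron 6 was retained at 0.107 and 0.127 with EGFP siRNA and at 0.225 and 0.183 with CHERP siRNA (difference 0.0872 ± 0.0229 SE, FDR = 0.00661, quasi-binomial test). The groups did not overlap, with 287 and 373 intron reads against 564 and 556. Without the first CHERP siRNA library the FDR was 0.336 and without the first EGFP siRNA library 0.0855. The intron overlaps RBM5-AS1, an antisense gene, over its 5′ part. The libraries were stranded, but whether the read counting used the strand is not given in the sources used here, and the part of antisense reads was not tested.

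RBM3 retained intron 3 at 0.0342 and 0.0362 with EGFP siRNA and at 0.0725 and 0.0567 with CHERP siRNA (difference 0.0294 ± 0.00798 SE, FDR = 2.05e-06, quasi-binomial test). The change was small as a share of transcripts, and intron reads numbered 282 and 316 against 384 and 303. What fell in both CHERP siRNA libraries were the reads that join exons 3 and 4, from 1450 and 1532 to 895 and 919. The 269-nt exon in this intron was included at 0.0173 and 0.0183 against 0.0393 and 0.0351 (FDR = 0.00296, quasi-binomial test), and an alternative 5′ splice site that joins exon 3 to this exon without a break was used at 0.0259 and 0.0207 against 0.0518 and 0.0398 (FDR = 1.84e-05, quasi-binomial test). All 3 events share the same skipping reads. With the exon's reads subtracted, the intron still differed by 0.0296 (FDR = 0.000348, quasi-binomial test). Without the first CHERP siRNA library the FDR was 0.101 for the intron, 0.38 for the exon and 0.296 for the splice site, and for the exon it was also over the threshold without the second (0.0946).

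In 4 mutually exclusive exon events of RBM3 the 269-nt exon, or its longer form, was set against exon 2, 3 or 4 of the transcript. The share of the alternative exon rose and that of the constitutive exon fell in all 4. In the event with the most reads, exon 2 was at 0.963 and 0.977 with EGFP siRNA and at 0.939 and 0.951 with CHERP siRNA (difference -0.0249 ± 0.00928 SE, FDR = 0.000956, quasi-binomial test). The groups were separate, but the nearest libraries of the 2 groups were closer to each other than the control libraries were. It was over the threshold without the second EGFP siRNA library (FDR = 0.205) and without the first CHERP siRNA library (FDR = 0.668). The other 3 were over it without either CHERP siRNA library.

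**Figure D2:**
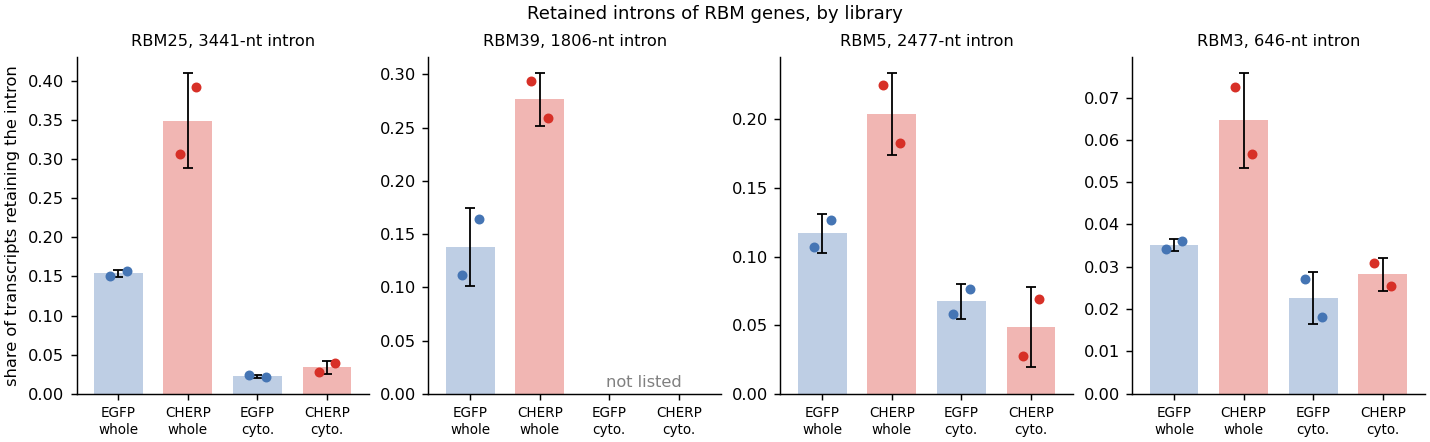
Share of transcripts retaining the intron in RBM25, RBM39, RBM5 and RBM3 on the y axis (each panel has its own scale from 0), by siRNA and fraction, with points for the 2 libraries, bars for their mean and lines for the SD. In whole cells every CHERP siRNA library lies above every EGFP siRNA library, for RBM25 at 0.306 and 0.392 against 0.151 and 0.157, and the cytoplasmic shares are lower, with the RBM39 intron not listed there.

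RBM8A, a core protein of the exon junction complex also called Y14, differed at a junction that was used less with CHERP siRNA. A 209-nt extension of an exon at an alternative 5′ splice site (chr1:145508076-145508284) was included at 0.956 and 0.937 with EGFP siRNA and at 0.994 and 0.977 with CHERP siRNA (difference 0.0393 ± 0.0128 SE, FDR = 0.045, quasi-binomial test). The junction that jumps from the short exon to the exon at chr1:145508475-145508611 had 20 and 31 reads in the control libraries against 3 and 12. A mutually exclusive exon event with nearly the same junction reads fell from 0.0557 and 0.0708 to 0.00791 and 0.0303 (FDR = 0.0262, quasi-binomial test). Both calls rest on this 1 rare junction, and both were over the threshold without either CHERP siRNA library or without the second EGFP siRNA library (highest FDR 0.978 and 1). The stretch overlaps the antisense gene LIX1L-AS1.

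**Figure D3:**
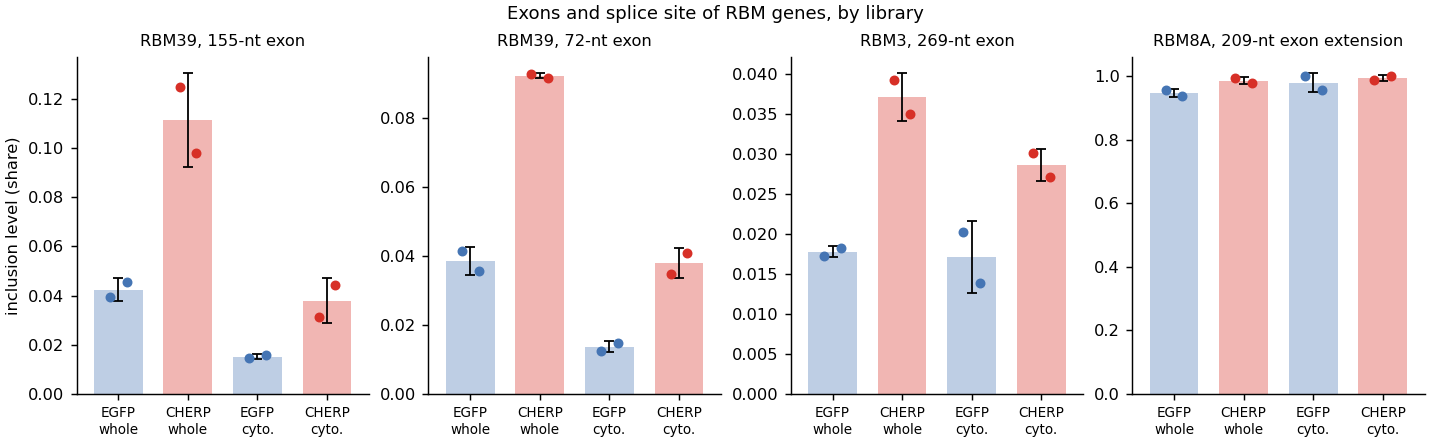
Inclusion level on the y axis (each panel has its own scale from 0) of the 155-nt and 72-nt exons of RBM39, the 269-nt exon of RBM3 and the 209-nt exon extension of RBM8A, by siRNA and fraction, with points for the 2 libraries, bars for their mean and lines for the SD. The exons of RBM39 and RBM3 are minor forms that lie higher in both CHERP siRNA whole-cell libraries, for the 72-nt exon at 0.0927 and 0.0916 against 0.0414 and 0.0357.

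The other 319 whole-cell events did not pass. For the 313 of them with reads in every library, the differences ran from -0.549 in RBM33 to 0.571 in RBM23, and 32 of them were at least 0.1 in size. The 2 at these ends had a mean of 3 reads per library. The other 6 had a library without reads and are left out of these numbers. Closest to the threshold were a 176-nt intron of RBM45, with a difference of 0.088 (FDR = 0.0575, quasi-binomial test), and exon skipping in RBM8A at the junction described above (FDR = 0.0845 and 0.0979, quasi-binomial test).

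**Figure D4:**
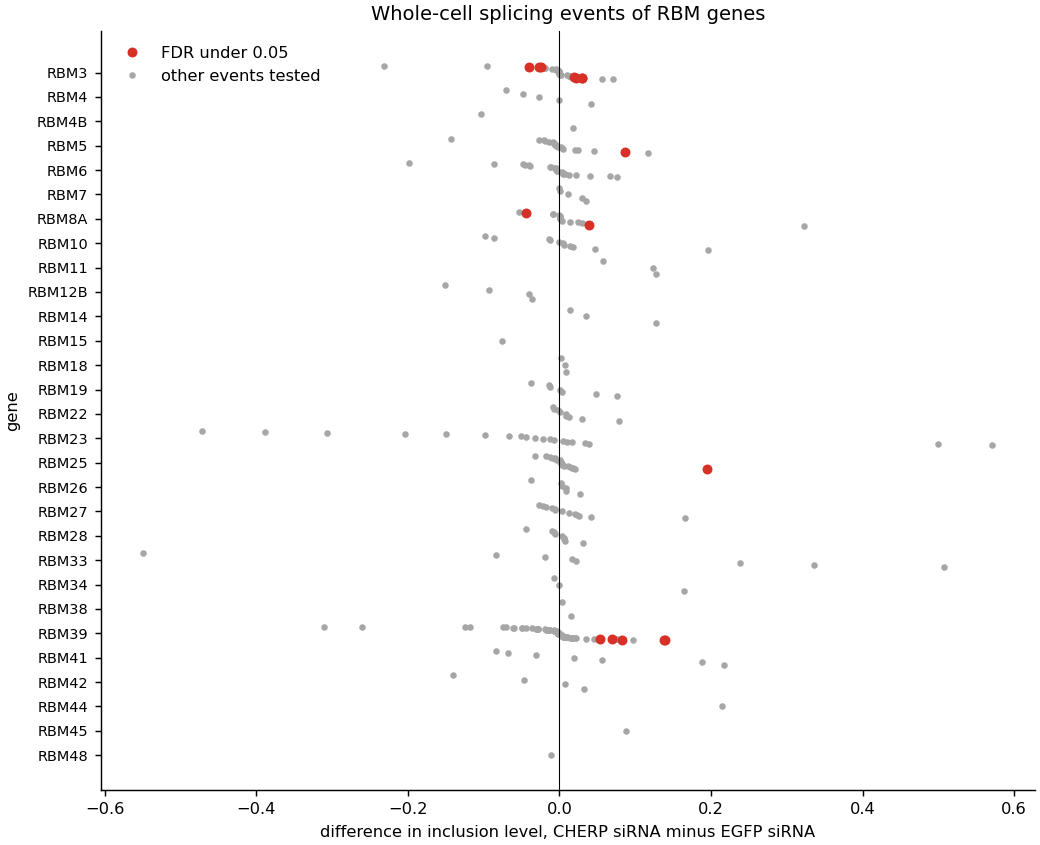
Difference in inclusion level, CHERP siRNA minus EGFP siRNA, on the x axis for the 329 whole-cell events with reads in every library, 1 point each, with the 29 RBM genes on the y axis. The 16 events that passed the test (red) are confined to RBM3, RBM5, RBM8A, RBM25 and RBM39, and the widest differences, from -0.549 to 0.571, are in grey.

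In the cytoplasm, 24 of the RBM genes had 161 events, and none passed the quasi-binomial test (13 at an unadjusted p under 0.05, smallest FDR 0.441), against 0.402% of all 43559 events. limma called none either (11 at an unadjusted p under 0.05). For both tests the share of all cytoplasmic events at the unadjusted threshold is not given. Of the 16 whole-cell events, 10 had a cytoplasmic entry at the same coordinates, and 9 of these lay on the same side of 0. These 10 are not independent, since several are RBM3 events that share skipping reads. The share over all events is not given. For the RBM3 intron and the RBM8A splice site the cytoplasmic groups overlapped, with differences of 0.00561 and 0.0154. The RBM25 intron was retained at 0.0238 and 0.0211 with EGFP siRNA and at 0.028 and 0.0392 with CHERP siRNA in the cytoplasm (FDR = 0.778, quasi-binomial test). The RBM5 intron was the exception, at 0.0584 and 0.0764 against 0.0278 and 0.0693. These shares are lower than in whole cells, but the fractions were read with different effective lengths, 144 nt for a skipping form in whole cells and 73 nt in the cytoplasm, and the difference in level was not tested.

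The exons had cytoplasmic levels that lay apart between the siRNAs without passing the test. The 72-nt exon of RBM39 was at 0.0125 and 0.0147 with EGFP siRNA and at 0.0347 and 0.0409 with CHERP siRNA, on 4 to 11 inclusion reads (FDR = 0.779, quasi-binomial test). The 155-nt exon was at 0.0145 and 0.0158 against 0.0314 and 0.0444 (FDR = 0.779, quasi-binomial test), and the 269-nt exon of RBM3 at 0.0203 and 0.0139 against 0.0301 and 0.0272 (FDR = 0.779, quasi-binomial test). The groups did not overlap for any of these exons, but the share of all cytoplasmic events without overlap is not given.

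The siRNA effect itself was compared between fractions for the 133 events tested in both. None differed past the threshold, against 0.0387% of all 33604 events. The nearest was the RBM25 intron, whose log odds ratio of retention (natural log) was 1.07 in whole cells and 0.37 in the cytoplasm, a difference of -0.7 (95% interval -1.23 to -0.17, FDR = 0.754). A response in whole cells alone is therefore not shown for any of these events.

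Gene abundance was summed over a gene's skipped exons and alternative splice sites, as reads divided by effective length, since the deposited expression table gives no value per library. Levels are given as reads per nt and event after scaling, and folds on the log2(value + 0.01) scale. In bulk RNA, fewer transcripts per cell and a change in which cells are present cannot be told apart. With EGFP siRNA in whole cells the level was highest for RBM3 at 4.86 ± 0.0831 (SD, n = 2), then RBM8A at 4.21 ± 0.394, RBM39 at 2.33 ± 0.182 and RBM25 at 1.87 ± 0.27. It was lowest for RBM44, a gene known from the germ line, at 0.0194 ± 0.0167, and RBM45 at 0.0208 ± 0.0295, which do not differ beyond their spread and had too few reads to be tested.

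Of 27 RBM genes tested in whole cells, 5 fell and none rose (limma, Benjamini-Hochberg over 9660 genes). Over all genes 18.4% fell and 18.8% rose, so the share of the family that fell, 18.5%, was near the background. With an EGFP siRNA library left out more of the family fell, and with a CHERP siRNA library left out fewer did. The share of all genes that fell moved the same way. Some members rose where an EGFP siRNA library was left out, and the share of all genes that rose was larger there too. The median log2 difference was -0.07 over the family and 0.006 over all genes. In the cytoplasm 7 of 22 fell and 1 rose, against 23.6% and 24.6% of 7293 genes, with a median of -0.13 against -0.008. Scaling by the total changed these 2 shares of all genes to 28.8% and 19.3%, and the family's cytoplasmic counts under it are not given. In whole cells that scaling gave 6 members that fell and 0 that rose, against 20.5% and 17% of all genes. With 1 cytoplasmic library left out, more members rose in some fits, while the share of all genes that rose was smaller in each. Only RBM3, RBM25 and RBM39 fell in both fractions, and these 3 are among the 5 genes with a called splicing event, whereas RBM5 and RBM8A did not pass for abundance in either fraction. Abundance was summed from reads on splicing events, so the 2 kinds of call can share reads. RBM39 and RBM3 also have the most whole-cell events of the family, 84 and 32. A link between the 2 kinds of call was not tested.

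RBM3 was at 4.8 and 4.92 with EGFP siRNA and at 3.1 and 3.07 with CHERP siRNA in whole cells, a log2 difference of -0.65 (SE 0.09, limma adjusted p = 0.000509). In the cytoplasm it was at 3.39 and 3.47 against 2.08 and 2.1 (log2 -0.72, SE 0.06, limma adjusted p = 1.48e-06). The libraries of a group were close together and the groups far apart in both fractions, and the fall held with any 1 library left out.

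RBM25 was at 1.68 and 2.06 against 1.16 and 1.14 in whole cells (log2 -0.69, SE 0.12, limma adjusted p = 0.00162) and at 0.583 and 0.829 against 0.367 and 0.402 in the cytoplasm (log2 -0.85, SE 0.16, limma adjusted p = 0.0013). Its control libraries spread more than its CHERP siRNA libraries, without overlap. RBM39 was at 2.2 and 2.45 against 1.83 and 1.84 in whole cells (log2 -0.34, SE 0.1, limma adjusted p = 0.0214) and at 0.875 and 1.03 against 0.588 and 0.596 in the cytoplasm (log2 -0.68, SE 0.08, limma adjusted p = 2.48e-05). The whole-cell fall of RBM39 was over the threshold without the first (adjusted p = 0.256, limma) or the second CHERP siRNA library (0.245).

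RBM34, a nucleolar protein, and RBM11, a splicing regulator found mainly in brain and testis, fell in whole cells and had no events in the cytoplasmic tables. RBM34 had 181 and 191 reads on its 1 event used, against 70 and 95 (log2 -1.23, SE 0.27, limma adjusted p = 0.00629). RBM11 had 72 and 114 reads against 42 and 37 (log2 -1.3, SE 0.33, limma adjusted p = 0.0123). The groups did not overlap in either gene. Each call was lost without 1 CHERP siRNA library, that of RBM34 without the first (adjusted p = 0.0629, limma) and that of RBM11 without the second (0.0594).

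In the cytoplasm 4 further genes fell, none of which passed in whole cells. In whole cells the groups overlapped for RBM42 (log2 -0.17, limma adjusted p = 0.772), RBM26 (log2 -0.22, limma adjusted p = 0.263) and RBM4 (log2 -0.05, limma adjusted p = 0.796). The whole-cell value of RBM42 rests on 38 to 79 reads per library, against 1250 to 2066 in the cytoplasm. Its 95% interval, -1.1 to 0.76, holds the cytoplasmic value of -0.55, so a fall in the cytoplasm alone is not shown. RBM42, a spliceosomal protein, was in the cytoplasm at 1.17 and 1.1 with EGFP siRNA and at 0.827 and 0.726 with CHERP siRNA (log2 -0.55, SE 0.08, limma adjusted p = 0.000223). RBM26, of the nuclear decay machinery, was at 0.255 and 0.257 against 0.167 and 0.166 (log2 -0.61, SE 0.18, limma adjusted p = 0.015). Neither gene's groups overlapped in the cytoplasm. RBM23, a close relative of RBM39, was at 0.153 and 0.114 against 0.103 and 0.0915 (log2 -0.44, SE 0.16, limma adjusted p = 0.0442), and RBM4, a regulator of exon choice and of translation, at 0.787 and 0.725 against 0.634 and 0.635 (log2 -0.25, SE 0.09, limma adjusted p = 0.0389). Both of these were near the threshold and over it without the first EGFP siRNA library (adjusted p 0.333 and 0.176, limma) or without the second CHERP siRNA library (0.117 and 0.112). RBM4 was also over it without the first CHERP siRNA library (0.117), and RBM26 without the second EGFP siRNA library (0.0549).

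RBM38, an RNA-binding target of p53, was the 1 member that rose, in the cytoplasm. It was at 1.74 and 1.75 with EGFP siRNA and at 2.31 and 2.14 with CHERP siRNA (log2 0.35, SE 0.09, limma adjusted p = 0.00834). In whole cells it was at 0.436 and 0.303 against 0.306 and 0.432, and there the groups overlapped (log2 0, 95% interval -0.59 to 0.59). No gene among the 22 tested in both fractions differed between fractions in its siRNA effect, and none of all 7059 did (0%). Abundance in each fraction rests on that fraction's own events, for RBM25 16 in whole cells and 3 in the cytoplasm. Equal effects are therefore not shown.

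By role, the 10 members that act at splice sites or in the spliceosome had 2 that fell in whole cells, RBM25 and RBM39, and 4 of the 8 tested in the cytoplasm, the same 2 with RBM23 and RBM42. Over all genes 18.4% and 23.6% fell in these fractions. RBM5, RBM6, RBM10 and RBM22 of this group did not pass in either fraction, with log2 differences from -0.21 to 0.18 in whole cells and from -0.35 (RBM5, limma adjusted p = 0.0572) to 0.18 (RBM10) in the cytoplasm. RBM41 and RBM48, tested in whole cells alone, did not pass there. RBM23 was at log2 -0.64 in whole cells (limma adjusted p = 0.0546). Of the 3 nuclear decay members RBM26 alone passed, and in the cytoplasm only, while RBM7 was at log2 0.11 and 0.13. The m6A writer member RBM15 was at log2 0.38 in whole cells and -0.47 in the cytoplasm, with neither passing. RBM14 and RBM4B, RBM19 and RBM28, and the 3 tested genes of no role group used here, RBM12B, RBM18 and RBM33, did not pass in any fraction where they were tested. RBM12B and RBM41 had too few cytoplasmic reads to be tested.

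**Figure D5:**
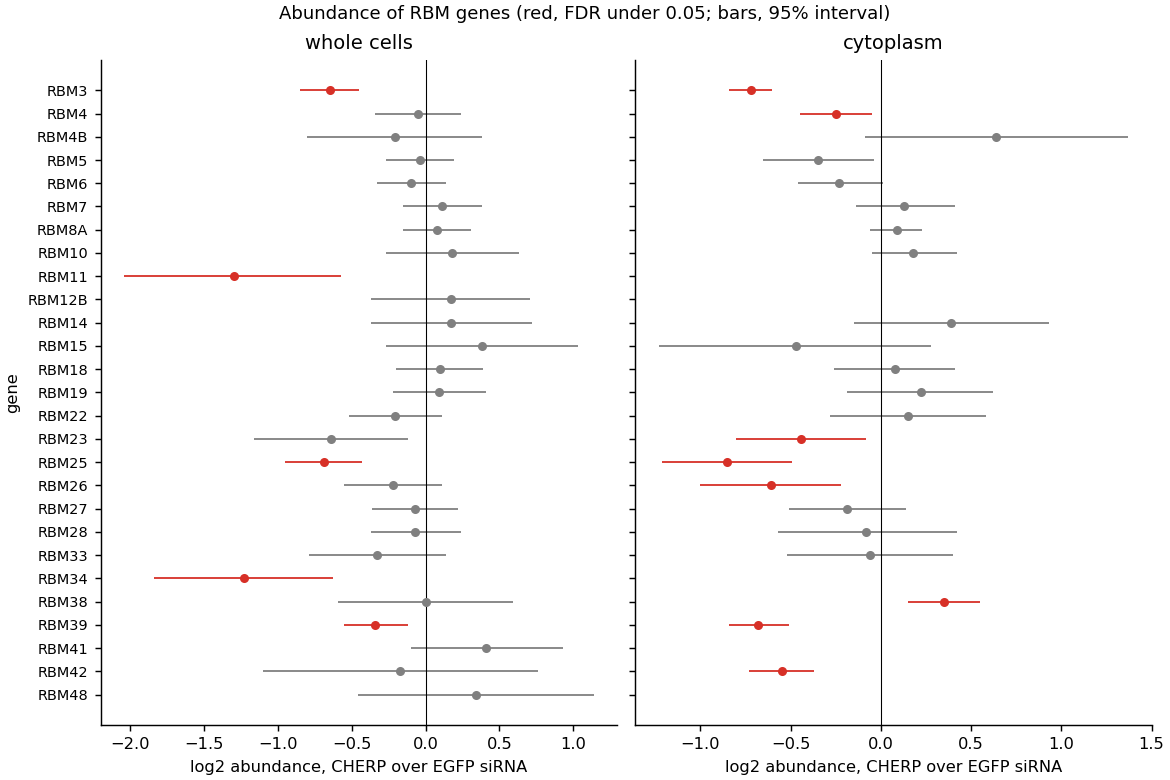
Log2 difference in abundance, CHERP over EGFP siRNA, on the x axis with its 95% interval, for each RBM gene tested on the y axis, in whole cells (left) and in the cytoplasm (right, on a narrower scale), with genes past the test in red. RBM3, RBM25 and RBM39 lie below 0 in both panels, and RBM38 is the only red point above 0, in the cytoplasm.

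Partners of these proteins were taken from a list of 26 genes outside the family. In whole cells 5 fell and 2 rose, and in the cytoplasm 10 of 25 fell and 3 rose. Over all genes 18.4% fell and 18.8% rose in whole cells, and 23.6% and 24.6% in the cytoplasm. In whole cells more partners fell with an EGFP siRNA library left out and fewer with a CHERP siRNA library left out. The share of all genes that fell moved the same way. More partners rose without the second EGFP siRNA library, as did a larger share of all genes. In the cytoplasm fewer partners fell with any 1 library left out, as did a smaller share of all genes. Among the 7 splice site partners 2 fell in whole cells and 5 in the cytoplasm. LUC7L3 fell most of the 7 in both fractions (log2 -0.88 and -0.95, limma adjusted p = 0.000182 and 1.86e-05), and U2AF2 fell too (log2 -0.64 and -0.37, limma adjusted p = 0.036 and 0.000731). SF3B1, U2SURP and SF1 passed in the cytoplasm alone (log2 -0.62, -0.4 and -0.19). No exon junction complex partner of RBM8A passed in whole cells, and RNPS1 alone of 5 fell in the cytoplasm (log2 -0.25). Of the 6 m6A writer genes ZC3H13 fell in both (log2 -1.18 and -0.79), and CBLL1 rose in the cytoplasm (log2 0.48). RBMX, a relative whose symbol the number rule leaves out, rose in both fractions (log2 0.94 and 1, limma adjusted p = 0.000124 and 5.24e-06), as did the paraspeckle protein PSPC1 (log2 1.22 and 1.32), while NONO fell (log2 -0.44 and -0.42). SFPQ, also on the paraspeckle list, was at log2 -0.02 in whole cells and fell in the cytoplasm (log2 -0.94). CIRBP, the other cold-inducible protein beside RBM3, was at log2 -0.29 in whole cells (limma adjusted p = 0.101) and fell in the cytoplasm by 0.41 on the log2 scale. Of the partners' splicing events, 8 of 305 in whole cells passed, in NONO, MAGOH, PUF60 and U2AF1, and 1 of 134 in the cytoplasm, in U2AF1, against 1.12% and 0.402% of all events.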

How the data were processed

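Poly(A) RNA of U2OS cells was measured in 8 libraries, 2 for each siRNA and fraction. Per the labels, reads were mapped with STAR 2.5.2b to hg19 and expression was estimated with RSEM 1.2.25 (GENCODE 19 in the methods). The authors deposited 10 rMATS tables, 1 for each of 5 event types and 2 fractions, with whole reads of the inclusion and the skipping form in each library and the effective length of each form, without normalization. The rMATS version is not given in the sources used here. The deposited expression table holds a mean signal (normalized counts, by the authors) for each of 2 conditions in the cytoplasm. The columns of the authors' own comparisons (p-values, FDR, differences, fold ratios, posterior probabilities) and the 20 columns of inclusion levels were not used. Cells of the tables join 2 libraries without a replicate number, so the libraries are called first and second in the order of the cell. The methods describe the 2 as biological replicates.

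The members and the lists of roles and partners were chosen with earlier results of these data known. Every event of a table with reads in both groups was tested by comparing its inclusion reads with its skipping reads in a quasi-binomial fit. Within an event type, limma 3.58.1 (squeezeVar, R 4.3.3) moderated the Pearson dispersion along mean read depth, never below 1. Its prior degrees of freedom were infinite, so the spread of a single event between its libraries had no weight. In 8 of the 16 called events that spread was above the dispersion used. p-values were adjusted by Benjamini-Hochberg within an event type over the whole table, with a threshold of 0.05. The difference between fractions was tested on the log odds ratio with 0.5 reads added to each form. Abundance was scaled by median ratios and tested with limma (trend on) on log2(value + 0.01), where a gene averaged 20 reads or more per library. A mean of 3 or 4 reads, as some events have, gives no usable share, and read counts limit the precision in counting error only. The event and abundance tests were run on simulated data, whose outcome is not given here. The simulated events all shared the same dispersion, so that run cannot show how the event test behaves where spread differs between events.

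The text names every RBM event and every RBM gene with an FDR under 0.05, and events on the same exon or intron are described by the one with the most reads, with the others given beside it. Sequences were read from GRCh37, the assembly also called hg19, and gene parts from GENCODE 44 lifted to it, which is not the annotation the authors used. Alternatives covered read minima, the dispersion trend, the adjustment, limma on log2 odds, a minimum difference, pseudocount, filter, event types, scaling and each library left out. Tables were handled in Python 3.11.15 with pandas 2.3.3.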

Additional observations from a re-analysis of the deposited data

How the results depend on the processing

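No paired analysis was possible because the columns carry no replicate number. The 16 whole-cell RBM events became 3 when a difference of at least 0.1 in inclusion level was required (the RBM25 and RBM39 introns and 1 RBM39 mutually exclusive exon event), 0 under limma on the log2 odds, 23 without a dispersion trend, and 4 to 17 with 1 library left out. The cytoplasmic count of 0 became 2 without a dispersion trend and 1 with the trend on the reads of the rarer form. The counts over all cytoplasmic events were 479 and 419 under these settings, up from 175. The cytoplasmic RBM count did not rise with 1 library left out. With 1 library left out, the whole-cell abundance counts were 3 to 8 lower and 0 to 2 higher, and the cytoplasmic counts 5 to 6 lower and 1 to 3 higher. For the partners they were 2 to 11 lower and 2 to 6 higher in whole cells and 5 to 8 lower and 2 to 3 higher in the cytoplasm. The log2 difference of CHERP in whole cells lay between -4.30 and -2.61 with 1 library left out. With all libraries and a pseudocount of 0.1 it was -1.98, so its size depends on the pseudocount. With 1 library left out, the lone library of a group was assumed to vary like the other groups. The share of all genes that fell moved with these counts. In whole cells it went up without an EGFP siRNA library and down without a CHERP siRNA library. In the cytoplasm it went down in each of these fits. Scaling by the total moved the median of all genes in the cytoplasm to -0.105 and the shares of genes that fell and rose to 28.8% and 19.3%, from 23.6% and 24.6%. No result reversed its direction under the alternatives run. Among the named events, 84 values under other settings stayed on their side of the threshold and 30 no longer passed the test, and with 1 library left out 36 stayed and 28 did not. Among the named genes these counts were 75 and 1, and 42 and 10, and the 1 was RBM23 in the cytoplasm with all 5 event types (adjusted p = 0.0727, limma). The RBM5 intron had an FDR of 0.0544 with the dispersion trend on the rarer form. The cause of these shifts was not tested. The median cytoplasmic event had 72 reads per library against 215 in whole cells, with 24 and 25 events under 10, and the cytoplasmic count was also 0 with a minimum of 50 reads. The part of depth in that count was not tested.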

Other observations

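The authors' cytoplasmic expression table lists 6757 genes and 11 of the 29 RBM members. Its columns carry no siRNA name, so the authors' means are given here as first and second condition, without direction. They were 3443 and 5099 for RBM3, 1322 and 2473 for RBM25, 2476 and 3346 for RBM39, 338 and 628 for RBM34, 1956 and 2508 for RBM42 and 648 and 792 for RBM26. For RBM38 they were 2413 and 1668, for RBM10 2914 and 2134, for RBM14 2576 and 2098, for RBM19 2604 and 1927 and for RBM8A 3396 and 2907. CHERP itself was at 209 and 1685. RBM34, which has no event in the cytoplasmic splicing tables, has a cytoplasmic value in this table alone.

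RBM17, which the rule leaves out and which binds CHERP, was at 2.36 and 2.53 reads per nt and event with EGFP siRNA and at 1.85 and 1.88 with CHERP siRNA in whole cells (log2 -0.39, SE 0.11, limma adjusted p = 0.0176). In the cytoplasm it was at 1.31 and 1.44 against 1.2 and 1.17 (log2 -0.2, limma adjusted p = 0.239).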
